A study of Mus musculus with 2 samples.

Results

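Open chromatin at 8 genes of the FGF and ERK pathway was read from ATAC-seq peaks of mouse embryonic stem cells (ESCs). The genes were Fgf4, Fgfr1, Fgfr2, Spry2, Spry4, Dusp6, Etv4 and Etv5, out of 22208 protein-coding genes of the annotation. All peaks in each gene and in 50 kb on either side were taken, whatever their values, and placed by their distance to the gene's nearest transcription start site (TSS). This gave 98 of the 71914 peaks of the WT library and 72 of the 61640 peaks of the Uhrf1 KO library. Both libraries were made from undifferentiated E14 mESCs, a mouse ESC line, and 50000 cells were lysed for each. The WT cells carried no named mutation, and the KO cells lacked Uhrf1, whose protein binds hemimethylated CpG sites and is needed to keep DNA methylation through replication. Both were grown in serum medium with leukemia inhibitory factor on gelatin or on plates coated with MEFs (mouse embryonic fibroblasts), and no treatment was given. The KO cells are a single line, so the genotype and the history of that line cannot be told apart.

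In ESCs, FGF4 is secreted by the cells themselves and binds FGF receptors, which signal through adaptor proteins, RAS and the kinases RAF, MEK and ERK. Active ERK moves cells away from naive pluripotency, and in the early embryo the same pathway directs inner cell mass cells towards primitive endoderm. The pathway switches on its own inhibitors, such as the Sprouty proteins and the ERK phosphatase DUSP6, and the ETS transcription factors ETV4 and ETV5, so these genes are widely used as readouts of its activity.

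1 library was sequenced per genotype, so no difference between them can be tested, and every value compares these libraries and not the conditions. The deposited lists hold positions of peaks but no read counts, and the number of fragments behind a peak is unknown. A missing peak is therefore not shown to be closed chromatin. A peak was called shared when a peak of the other library lay within 100 bp, and WT-only or KO-only otherwise. Intervals are 95% exact intervals and cover counting error only, and neighbouring peaks of 1 open region are not independent. The ESC markers Pou5f1, Sox2, Nanog, Esrrb, Zfp42, Tdgf1, Dppa5a and Klf4 had a promoter peak in both lists (8 of 8). Of 8 fibroblast markers, 5 had one in each library, and Col3a1, Twist2 and Postn had none. Promoter peaks of fibroblast markers were thus as many in both lists, and the part of feeder cells in the results was not tested. Of the markers of differentiated cells, 4 of 5 for extraembryonic endoderm and 2 of 2 for neuroectoderm had a promoter peak in each library, and 3 of 3 for mesoderm had one in WT but 1 of 3 in Uhrf1 KO. A promoter peak does not show that a gene is expressed.

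The promoter was open in both libraries at all 8 genes (defined as a peak with its middle within 2 kb of a TSS), against 56.3% of all protein-coding genes. A promoter peak in WT alone was found at 6.77% of all genes, and one in Uhrf1 KO alone at 1.74%. Peaks outside untranslated exon sequence are given for 5 of these promoters, each the promoter peak with the lowest name number outside such sequence in 1 library. They are written 5′ to 3′ on the strand of the gene, from the mm9 genome, with the CG dinucleotides in capitals, because these are the sites at which DNA methylation is placed. Distances are in bp from the nearest TSS of the gene, negative when upstream.
Fgf4, WT, -91 bp (chr7:152047150-152047250, + strand): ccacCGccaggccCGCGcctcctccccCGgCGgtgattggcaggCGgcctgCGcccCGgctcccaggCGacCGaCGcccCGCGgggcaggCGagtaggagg
Fgfr1, Uhrf1 KO, -61 bp (chr8:26629153-26629253, + strand): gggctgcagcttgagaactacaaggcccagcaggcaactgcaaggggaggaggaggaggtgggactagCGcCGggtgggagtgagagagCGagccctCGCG
Spry2, WT, -516 bp (chr14:106296502-106296602, - strand): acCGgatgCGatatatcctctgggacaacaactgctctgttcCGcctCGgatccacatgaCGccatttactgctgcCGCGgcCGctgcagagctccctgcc
Dusp6, Uhrf1 KO, -71 bp (chr10:98725744-98725844, + strand): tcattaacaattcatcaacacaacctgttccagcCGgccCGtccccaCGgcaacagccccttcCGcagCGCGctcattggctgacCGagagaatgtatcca
Etv5, Uhrf1 KO, -71 bp (chr16:22439813-22439913, - strand): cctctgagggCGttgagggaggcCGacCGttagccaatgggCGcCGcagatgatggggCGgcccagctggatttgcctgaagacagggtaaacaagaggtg
The Fgf4 sequence held 14 CG sites within 101 bp and was 81.2% G or C. The Spry2, Dusp6, Etv5 and Fgfr1 sequences held 8, 7, 6 and 5.

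Of the peaks found in 1 library alone, those with the lowest name number of their gene follow for Spry2 in WT and for Fgf4, Spry2 and Dusp6 in Uhrf1 KO, again on the strand of the gene and with CG dinucleotides in capitals. They are 4 of the 44 peaks without a partner and do not stand for the others. The Spry2 peak of WT had a KO peak at a gap of 163 bp.
Spry2, WT, -1876 bp (chr14:106297862-106297962, - strand): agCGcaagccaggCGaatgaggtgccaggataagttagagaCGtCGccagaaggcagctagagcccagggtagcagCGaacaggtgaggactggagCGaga
Fgf4, Uhrf1 KO, 47537 bp (chr7:152094778-152094878, + strand): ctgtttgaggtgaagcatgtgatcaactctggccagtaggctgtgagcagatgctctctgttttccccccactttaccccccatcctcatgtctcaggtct
Spry2, Uhrf1 KO, 769 bp (chr14:106295217-106295317, - strand): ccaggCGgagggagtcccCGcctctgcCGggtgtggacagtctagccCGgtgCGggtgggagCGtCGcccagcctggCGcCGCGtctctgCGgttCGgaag
Dusp6, Uhrf1 KO, 2215 bp (chr10:98728030-98728130, + strand): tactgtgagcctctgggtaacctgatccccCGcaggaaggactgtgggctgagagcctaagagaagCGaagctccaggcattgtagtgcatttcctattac
The WT-only peak upstream of Spry2 held 6 CG sites. The KO-only peak in the Spry2 gene held 12, that of Dusp6 held 2, and the KO-only peak downstream of Fgf4 held none.

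The 8 genes had 98 WT peaks and 72 KO peaks, a KO to WT ratio of 0.735 (0.534 to 1.01) against 0.857 for the whole lists. Of the WT peaks, 34 (34.7%, 25.4% to 45.0%) were WT-only, against 32.1% of all WT peaks. Of the KO peaks, 10 (13.9%, 6.87% to 24.1%) were KO-only, against 24.6% of all KO peaks. The WT-only share was therefore close to that of the list as a whole, and the KO-only share was lower, with an interval that ended just below the share of all KO peaks. This did not hold without Fgfr1 (17.2%, 8.59% to 29.4%), with 100 kb on either side (17.6%, 10.4% to 27.0%) or with the whole Fgfr2 record (18.4%, 12.4% to 25.8%), where the interval held 24.6%. The interval also held 24.6% with at least 1 bp shared (20.8%, 12.2% to 32.0%) or neighbouring peaks merged (19.2%, 9.63% to 32.5%). The share of the whole list under these rules is not given here. With the whole Fgfr2 record the WT-only share was 40.7% (33.9% to 47.8%), and its interval lay above 32.1%. Within 10 kb of a TSS of the 8 genes lay 47 WT peaks, of which 17 (36.2%, 22.7% to 51.5%) were WT-only. In the same stretches lay 32 KO peaks, of which 2 (6.25%, 0.766% to 20.8%) were KO-only. Among all peaks within 10 kb of a protein-coding TSS, the shares were 27.8% and 13.5%, and both lay inside the intervals of the 8 genes. Near TSSs, peaks without a partner were thus rarer in the KO list than in the WT list for genes in general. The 24.6% covers KO peaks at any distance from a TSS, so a share below it is not shown to be particular to the 8 genes.

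**Figure D1:**
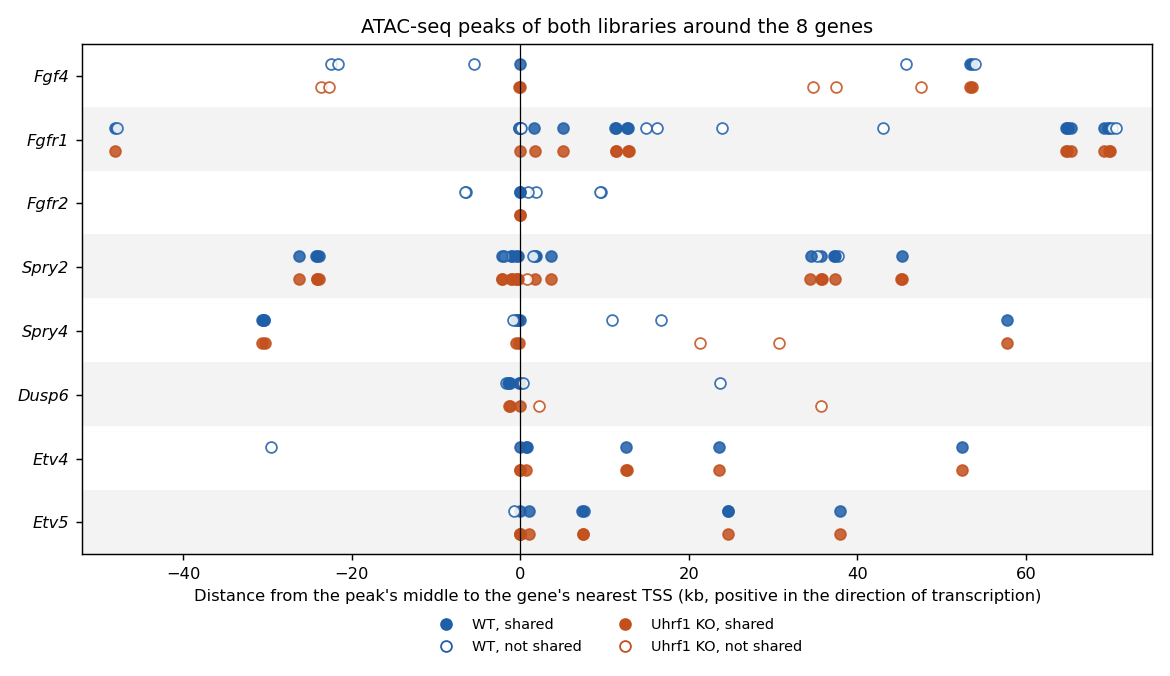
ATAC-seq peaks around the 8 genes. Each circle is 1 peak, placed by the distance in kb from its middle to the nearest TSS of the gene, in WT (blue, upper) and Uhrf1 KO (orange, lower). Filled circles are shared and open circles were found in 1 library alone. Fgfr2 shows 6 open blue circles and no open orange one, and Etv4 and Etv5 each show a single open circle.

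Peak numbers by gene were as follows. Etv4 had 7 peaks in each list and Etv5 had 8 in each. Spry2 had 21 WT and 20 KO peaks, and Fgf4 had 8 and 9. Dusp6 had 8 WT and 5 KO peaks, Spry4 had 12 and 7, Fgfr1 had 26 and 14, and Fgfr2 had 8 and 2. The last of these had the lowest ratio, 0.25 (0.0259 to 1.25), and that of Fgfr1 was 0.538 (0.260 to 1.07). A ratio of 1 lies inside the counting interval at each of the 8 genes, so none of these differences exceeds the counting error. Relative to the ratio of the lists, 2 of the 8 genes were lower by over 1.5-fold (Fgfr1 at 0.628 and Fgfr2 at 0.292), against 16.2% of the 13449 protein-coding genes with at least 10 peaks in both lists together. None was higher by over 1.5-fold, against 9.64% of genes. The count of lower genes depended on the gene model, since Fgfr2 taken as its whole annotated record had a ratio of 0.623, within 1.5-fold of the lists, which leaves 1 of the 8. When neighbouring peaks were merged into regions, Spry4 had 7 in each library, Dusp6 had 5 in WT and 4 in Uhrf1 KO, Spry2 had 16 and 12, and Etv4 and Etv5 each had 6 and 5. Fgf4 then had 8 in each, Fgfr1 had 19 and 10, and Fgfr2 had 5 and 1. On merging, the receptor genes thus kept the lowest ratios (0.526 and 0.2), but the order of the others changed. With 10 kb on either side, Spry4 (7 WT and 3 KO peaks, 0.429) was below Fgfr1 (15 and 7, 0.467). Fgfr2 was still the lowest, at 0.25. Over all tested genes the median ratio was 0.818, and 0.706% of them had a ratio below that of Fgfr2, 12.7% below Fgfr1, 18.6% below Spry4 and 22.5% below Dusp6. Spry2, Etv4, Etv5 and Fgf4 lay above the median, with 67.6% to 82.4% of genes below them.

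**Figure D2:**
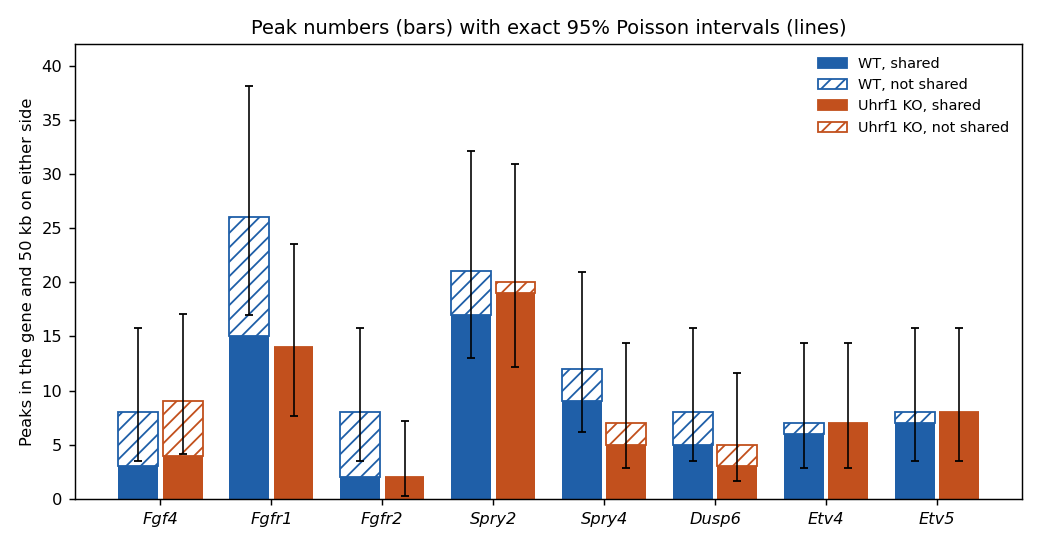
Peak numbers by gene. Bars give the number of peaks in the gene and 50 kb on either side (blue, WT; orange, Uhrf1 KO), the hatched part being the peaks found in that library alone, and lines are exact 95% Poisson intervals. The intervals of both libraries overlap at each of the 8 genes, also at Fgfr2 with 8 WT and 2 KO peaks.

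**Figure D3:**
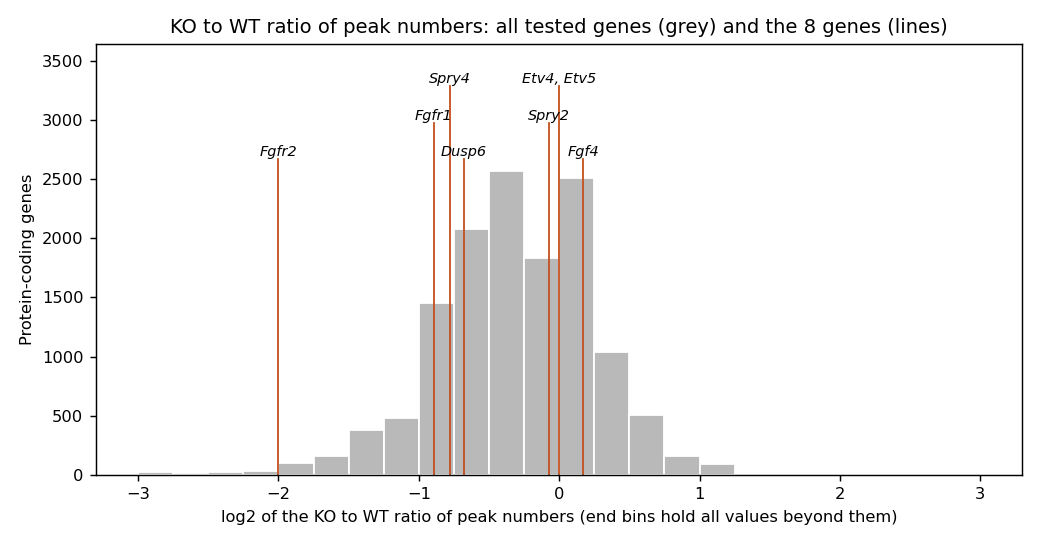
KO to WT ratio of peak numbers over protein-coding genes. The grey bars count the 13449 genes with at least 10 peaks in bins of the log2 ratio, and orange lines mark the 8 genes. Fgfr2 lies in the lower tail of the genes, and the other 7 lie in the bulk.

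The ligand came first in the order of the pathway. Fgf4 lies at chr7:152047291-152051148 on the plus strand of mm9. Its promoter had 1 WT peak, at -91 bp, and 2 KO peaks, at -134 and -38 bp, which flank the WT peak and were all shared. For the other peaks of the window, the TSS of a gene other than Fgf4 was closer, except for 1 in WT. That peak, at -5520 bp, was WT-only, but the genome holds 21 copies of its central 31 bp, so its reads can come from another copy. The central 31 bp of every other peak at the 8 genes occur once. The neighbour Fgf3, another FGF ligand gene, had 2 peaks at its promoter in each library, but none lay within 100 bp of a peak of the other library. The closest of these were 147 bp apart. At the promoter of Oraov1, on the other side, 2 of 3 WT peaks and both KO peaks were shared. On the same side a WT-only peak lay at 45807 bp, and KO-only peaks lay at 34667 bp, at the promoter of Fgf15, and at 37402 and 47537 bp, where the last is among the printed sequences. Fgf4 thus had 5 peaks without a partner in each list, yet at its own promoter none.

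Fgf4 carries in its 3′ untranslated exon sequence an enhancer at which Sox2 and Oct4 bind side by side. A search on both strands found its paired motifs, CTTTGTT (HMG box, the kind of site Sox2 binds) and ATGCTAAT (POU site, the kind Oct4 binds), with the POU site at chr7:152050309-152050316, 3018 bp downstream of the TSS. The stretch is shown on the plus strand with both motifs in capitals.
Fgf4 composite site: tCTTTGTTtggATGCTAATggg
The nearest WT peak lay 3113 bp from the POU site and the nearest KO peak 3060 bp, both at the promoter. The lists thus hold no peak at this site in either library.

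**Figure D4:**
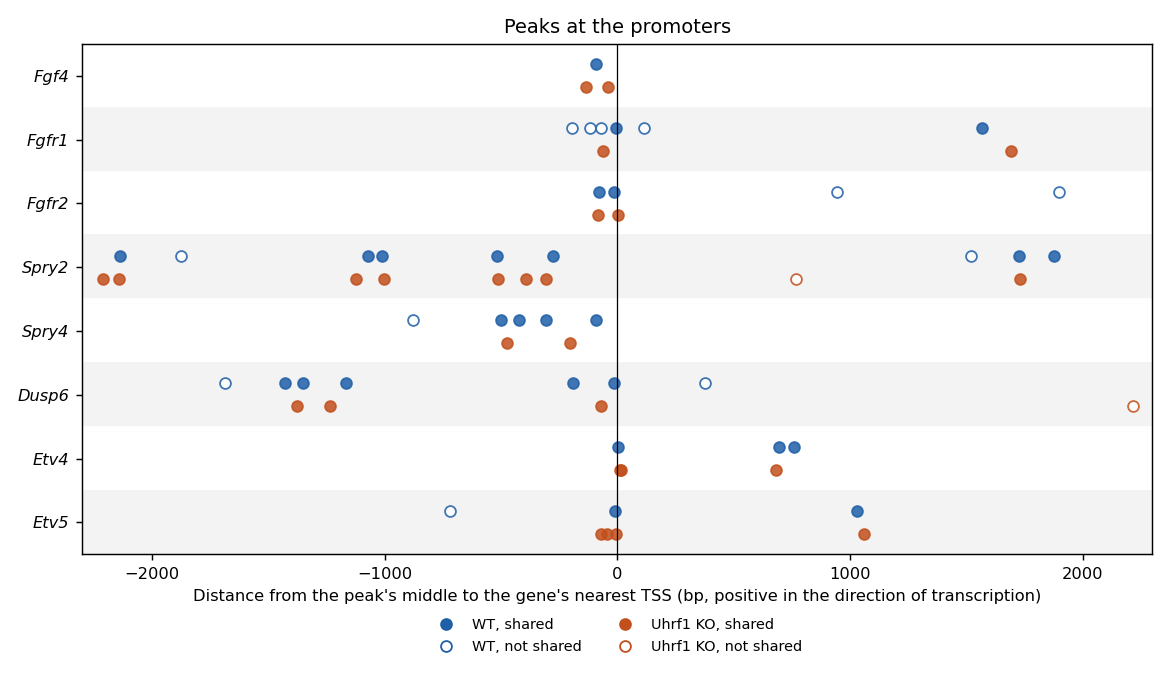
Peaks at the promoters of the 8 genes. Each circle is 1 peak, placed by the distance in bp from its middle to the nearest TSS, in WT (blue, upper) and Uhrf1 KO (orange, lower), and open circles were found in 1 library alone. All 8 genes have a filled circle of each colour, and Fgfr1, Fgfr2, Spry2, Spry4, Dusp6 and Etv5 have open blue circles.

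With 50 kb on either side, the 2 receptor genes had the lowest ratios of the 8, and neither had a KO-only peak. Fgfr1, the main FGF receptor of ESCs, lies at chr8:26624126-26686186 on the plus strand. Its promoters had 6 WT and 2 KO peaks. The peak at -5 bp in WT (-61 bp in Uhrf1 KO) and that at 1566 bp (1694 bp) were shared. The WT-only peaks at -194, -119, -69 and 115 bp all surrounded the TSS at position 26629791, and the nearest KO peak was 293 to 602 bp away from them. Those at -194, -119 and -69 bp each overlap the next, and that at 115 bp lies within 100 bp of them. Merging neighbouring peaks thus leaves a single region here. In the introns, both libraries had a peak at 5038 bp (5026 bp in Uhrf1 KO), a pair of peaks at 11246 and 11388 bp (11318 and 11379 bp) and a pair at 12691 and 12830 bp (12780 and 12841 bp). Farther along the gene, WT-only peaks lay at 14920, 16222 and 23890 bp in introns and at 43006 bp at the 3′ end. Upstream, a WT peak at -48047 bp had its KO partner at -48055 bp, and beside it the peak at -47823 bp was WT-only. The remaining peaks of the window were at the promoters of the neighbours Letm2 (4 in WT and 3 in Uhrf1 KO, all shared) and Whsc1l1 (5 in WT, of which 3 were shared, and 3 in Uhrf1 KO).

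Peaks were fewer in Uhrf1 KO over the whole of chromosome 8, where the ratio of the lists was 0.641. Relative to the chromosome, Fgfr1 was at 0.840, which is within 1.5-fold. Dusp6 (0.692) and Spry4 (0.701) were lower than that relative to their own chromosomes. The median ratio of the 815 tested genes of chromosome 8 was 0.667, and 24.7% of them had a ratio below that of Fgfr1. A difference of this locus and one of the whole chromosome cannot be told apart.

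Fgfr2, the receptor that marks primitive endoderm precursors in the embryo, lies on chromosome 7 from 137306026 to 137410322 on the minus strand. The chromosome as a whole had a ratio of 0.853, so Fgfr2 remained at 0.293 relative to it. Both libraries had 2 peaks at the TSS, at -13 and -79 bp in WT and at 4 and -82 bp in Uhrf1 KO, and these were the only KO peaks of the window. WT had 6 further peaks, all WT-only. They lay in introns at 945, 1897, 9463 and 9529 bp and upstream at -6500 and -6554 bp. No KO peak was near any of them, with gaps of 1090 to 13830 bp. By name number, described below, all 6 stood late, at 52.4% to 100% of the WT peaks of the chromosome. Of the 34 WT-only peaks at the 8 genes, 14 had a KO peak within 500 bp, but none of those of Fgfr2 did. The peaks at 9463 and 9529 bp overlap each other, as do those at -6500 and -6554 bp, so the 6 peaks stand for 4 places. For every peak of the window, the nearest protein-coding TSS was one of Fgfr2. The gene's record in the annotation has 1 transcript that starts over 1 Mb upstream and was left out here. With it, the record spans 3009 kb with many other genes and holds 114 WT and 71 KO peaks, a ratio of 0.623, which is no longer lower than the lists by over 1.5-fold.

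Sprouty proteins block the path from receptor to RAS. Spry2 lies at chr14:106291166-106296036 on the minus strand, and most of its peaks were shared. Of its 21 WT peaks 17 were shared, and of its 20 KO peaks 19. Merging neighbouring peaks left 16 regions in WT and 12 in Uhrf1 KO. At the promoter there were 8 WT peaks and 7 KO peaks, and the pair at -516 bp in WT and -512 bp in Uhrf1 KO was the earliest by name number. The peak in the coding exon, at 3646 bp in WT and 3641 bp in Uhrf1 KO, was shared. A group of 4 peaks between -23891 and -26287 bp was shared in full, with the KO peaks 12 to 39 bp away from the WT ones. Downstream of the gene, peaks between 34457 and 37654 bp and at 45277 bp were shared but for those at 35241 and 37654 bp, which were WT-only. Near the TSS, the peaks at 1522 and -1876 bp were WT-only, with the next KO peak at a gap of 106 and 163 bp, just over the limit of 100 bp. The KO-only peak at 769 bp, in the intron, had no WT peak within 652 bp. No other protein-coding gene had its TSS closer to any of these peaks.

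Spry4 lies on chromosome 18 from 38745922 to 38760922 on the minus strand. The stretch upstream of its TSS is also the promoter of the gene 9630014M24Rik, so its peaks cannot be given to either gene. There were 5 WT peaks, at -92, -307, -423, -498 and -879 bp, and 2 KO peaks, at -205 and -473 bp. All but that at -879 bp were shared. Farther upstream lay 4 WT peaks between -30367 and -30602 bp and 2 KO peaks at -30345 and -30636 bp, all shared. They lie within 9630014M24Rik, whose TSS is nearer to them than that of Spry4. At both places, the same open stretch held more peaks in WT than in Uhrf1 KO. WT-only peaks lay at 10931 bp in the coding exon and at 16634 bp, and KO-only peaks at 21338 and 30676 bp. A peak at 57793 bp in WT (57787 bp in Uhrf1 KO) was shared.

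DUSP6 removes the activating phosphates from ERK. Dusp6 lies at chr10:98725865-98730122 on the plus strand. WT had 7 promoter peaks and Uhrf1 KO 3. The peaks at the TSS, at -16 and -191 bp in WT and at -71 bp in Uhrf1 KO, were shared, as was a group at -1428, -1352 and -1165 bp in WT and at -1378 and -1235 bp in Uhrf1 KO. The WT-only peaks near the TSS were at -1685 and 375 bp, at gaps of 206 and 345 bp from the next KO peak. The KO-only peak at 2215 bp, in an intron, was 1739 bp from the next WT peak. More than 10 kb away, WT had a peak at 23749 bp and Uhrf1 KO one at 35684 bp, neither of them shared.

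The ETS factor genes that ERK activates had the fewest peaks without a partner, 1 each. Etv4 lies at chr11:101631056-101646685 and Etv5 at chr16:22381382-22439792, both on the minus strand, and neither had a KO-only peak. At Etv4 the peaks at the TSS (5 bp in WT, 11 and 17 bp in Uhrf1 KO), at 696 and 758 bp (682 bp), in an intron at 12556 bp (12554 and 12684 bp) and downstream at 23537 bp (23538 bp) were shared. A peak at 52411 bp (52405 bp), at the promoter of Dhx8, was also shared. The WT-only peak of Etv4 was at -29539 bp, with no KO peak within 29449 bp. At Etv5 the peaks at the TSS (-8 bp in WT and -4, -44 and -71 bp in Uhrf1 KO), at 1032 bp (1060 bp), in an intron at 7378 and 7506 bp (7401 and 7483 bp), in a coding exon at 24616 and 24691 bp (24621 bp) and in an intron at 37971 bp (37983 bp) were shared. Its WT-only peak, at -720 bp, had a KO peak at a gap of 548 bp and stood at the end of the WT list by name number.

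The number in a peak's name gives an order within each chromosome whose meaning the sources do not state. In both lists the numbers run along a chromosome from low to high position and then start again, in 72 to 145 runs per chromosome in WT and 60 to 130 in Uhrf1 KO, which is the form of a list sorted by a whole-number value. The order was read as such and not as a height. The place of a peak is given as the percent of the chromosome's peaks in its run or an earlier one, so that a small percent is early. Peaks early in the order were more often shared: over the whole WT list 90.1% of peaks in the first 50% were shared, 51.9% of those from 50% to 90% and 35.6% of the rest. At the 8 genes the median place was 37.0% for shared and 80.7% for WT-only peaks in WT, and 35.9% for shared and 81.3% for KO-only peaks in Uhrf1 KO. These are close to the medians over the lists, 36.9% and 76.2% in WT and 41.8% and 78.7% in Uhrf1 KO. Of the 34 WT-only peaks, 3 stood in the first 50%, at -1876 bp (31.8%) and 1522 bp (38.7%) of Spry2 and at 115 bp (43.0%) of Fgfr1. Of the 10 KO-only peaks only that at 47537 bp of Fgf4 did (40.9%). The WT-only peaks of Fgfr2 stood at 52.4% to 100%, where peaks of the whole WT list were less often shared.

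The earliest promoter peak of each gene put the genes in nearly the same order in both libraries. Spry2, Dusp6 and Etv5 came first, at 2.7%, 4.2% and 4.7% in WT and at 3.4%, 1.6% and 5.8% in Uhrf1 KO. Over the 12512 genes with a promoter peak in both lists the median place was 17.0% in WT and 22.9% in Uhrf1 KO. Only 7.77%, 12.8% and 14.6% of these genes had an earlier promoter peak than Spry2, Dusp6 and Etv5 in WT, and 6.80%, 2.49% and 13.1% in Uhrf1 KO. Fgfr1 (18.2% in WT and 24.1% in Uhrf1 KO) and Spry4 (20.8% and 27.4%) were near the median. Fgf4 was later, at 34.0% and 40.9%. Etv4 was at 41.6% in WT and 24.3% in Uhrf1 KO, and was the gene of the 8 that was earlier in Uhrf1 KO by the most. Fgfr2 came last in both libraries, at 49.3% and 55.7%, with 89.0% and 82.2% of genes ahead of it. With 1 library each, the spread of these places between libraries of 1 genotype is unknown, so neighbours in the order are not shown to differ. Over the 64 shared WT peaks of the 8 genes, the places of a WT peak and of its KO partner had a Spearman's rho of 0.503, against 0.654 over the 48865 shared WT peaks of the list. The points share libraries and chromosomes, and rho is given as a description.

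**Figure D5:**
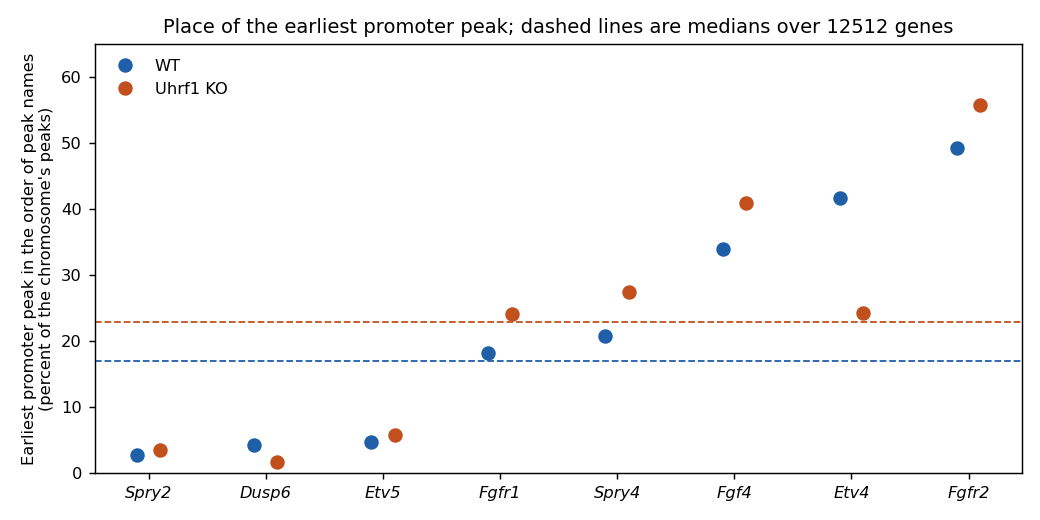
Place of the earliest promoter peak of each gene in the order of peak names, as percent of the chromosome's peaks (blue, WT; orange, Uhrf1 KO). Genes are sorted by the WT value, and dashed lines are the medians over 12512 genes, 17.0% in WT and 22.9% in Uhrf1 KO. Spry2, Dusp6 and Etv5 lie below 6% in both libraries, and Fgfr2 is highest in both.

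The peaks of the 8 genes were searched on both strands for 8 short motifs of factors that act in ESCs or below ERK. The octamer ATGCAAAT and the POU site ATGCTAAT, sites of Oct4, were in none of the 98 WT and 72 KO peaks (exact intervals up to 3.69% and 4.99%). Over the whole lists the octamer was in 0.745% of WT and 0.998% of KO peaks and the POU site in 0.496% and 0.630%. The ETS motif CCGGAAGT, read by factors such as ETV4 and ETV5, was in none either, against 1.20% and 1.24% of all peaks, and the same held for the Stat motif TTCCNGGAA, at 0.311% and 0.339% of all peaks. The HMG box CTTTGTT was in 3 peaks of each library, the Klf motif CCACACCC in 2 of each, the Esrrb motif TCAAGGTCA in 1 WT peak and the AP-1 motif TGANTCA in 1 KO peak. These low counts cannot be told from the shares over all peaks, which were 1.74% and 2.38% for the HMG box. For the Klf motif the shares over all WT and KO peaks were 2.04% and 2.05%. They were 0.118% and 0.120% for the Esrrb motif and 2.20% and 2.75% for the AP-1 motif. The HMG box of the shared Fgfr1 peak in the intron is shown as it lies in both libraries, followed by the Esrrb motif of a Spry2 peak, with the motifs in capitals on the strand of the gene.
Fgfr1, WT, 12830 bp (chr8:26655533-26655633, + strand): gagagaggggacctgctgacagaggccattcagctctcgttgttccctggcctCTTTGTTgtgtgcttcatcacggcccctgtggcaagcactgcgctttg
Fgfr1, Uhrf1 KO, 12841 bp (chr8:26655544-26655644, + strand): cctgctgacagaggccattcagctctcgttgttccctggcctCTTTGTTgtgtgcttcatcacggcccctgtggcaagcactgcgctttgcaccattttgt
Spry2, WT, 37170 bp (chr14:106258816-106258916, - strand): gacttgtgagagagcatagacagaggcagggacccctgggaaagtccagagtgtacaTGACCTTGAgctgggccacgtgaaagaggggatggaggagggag
In Fgfr1 the same match lay in the WT peak and in its KO partner, 11 bp apart. A match of letters does not show that a factor was bound.

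By base composition, the peaks of the 8 genes were like those of the lists. Median GC was 61.9% in shared and 61.4% in WT-only peaks of WT, against 61.4% and 60.4% over the list. In Uhrf1 KO it was 62.4% in shared and 53.5% in KO-only peaks, against 61.4% and 51.5%. KO-only peaks were thus poorer in GC here and over the whole list.

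The rest of the pathway was read from 46 further genes of fixed roles. Windows of neighbouring genes can share peaks, and those of Fgf3 and Fgf15 hold peaks already counted in the Fgf4 window. A promoter peak was present in both libraries at 44 of them (95.7%), against 56.3% of all genes. Of the exceptions, Fgf8 had one in WT alone and Fgf15 one in Uhrf1 KO alone, and both encode FGF ligands. Within 1 kb of a TSS the share was 93.5%, as the ligand gene Fgf5 then had a promoter peak in WT alone. Among the 41 genes with at least 10 peaks, 6 were lower and 8 higher by over 1.5-fold relative to the lists, against 16.2% and 9.64% of all genes, and the median ratio was 0.818, equal to that over all genes. Among the lowest ratios were those of Nf1 (13 WT and 4 KO peaks, 0.308), whose protein switches RAS off and of Dusp4 (12 and 5, 0.417), a phosphatase related to DUSP6 that lies on chromosome 8. Among the highest were those of Ksr1 (4 and 7, 1.75), a scaffold of the kinases, and Map2k2 (14 and 22, 1.57), which encodes MEK2. By role, 0 of 4 further receptors, 1 of 10 kinases, 2 of 11 adaptors and GTPase genes and 3 of 13 feedback and target genes were lower, and none of the 3 tested ligands was. The kinases had the highest median ratio (1.32, with 5 of 10 higher) and the feedback and target genes the lowest (0.667, with 1 of 13 higher). Of the 3 tested ligands 1 was higher, Fgf8 (8 WT and 11 KO peaks), as was 1 of 11 adaptors and GTPase genes.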

How the data were processed

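ATAC-seq was performed on 1 WT and 1 Uhrf1 KO library of E14 mESCs. According to the methods, the authors aligned reads to mm9 with local Bowtie2 2.1.0, reporting 1 hit for each read, and used fragments shorter than 150 bp. HOMER 4.9.1 is named in the submitters' processing notes without a role. The peak caller, its threshold and any Tn5 shift are not given in the sources used here. The deposited files hold peak positions of 101 bp and a score that the authors set to 1 for every peak, which was not used as a strength. Depth behind a peak is unknown.

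Positions were compared in Python 3.11.15 with numpy 2.4.6 and scipy 1.17.1, and TSSs were taken from GENCODE vM1 transcripts on mm9. Sequences were read from the same build. Peaks separated by 100 bp or less were called shared, a limit the study set for transcription factors. A transcript over 1 Mb longer than the others of its gene was dropped (3 genes, among them Fgfr2), and the records of Fgfr1 were united. Both choices followed inspection of the annotation. Shares have 95% Clopper-Pearson, peak numbers exact Poisson and ratios exact conditional binomial intervals. No test between genotypes was made. Overlap was tested on simulated data. All 8 genes were described, with the peaks nearest to a TSS and those found in 1 library alone. Other pathway genes were named if open in 1 library alone or among the 3 lowest or highest ratios. Some of these genes and sequences are not reported here. Members and lists were chosen with earlier results of these data known. Sox1, a marker of neuroectoderm, was not analysed here. Alternatives covered the overlap rule, window, nearest gene, merging, promoter definition, name numbers, list length and Fgfr1.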

Additional observations from a re-analysis of the deposited data

How the results depend on the processing

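No paired analysis was possible because there is a single library of each genotype, and no replicate could be left out. Of 77 alternative values, 5 moved beyond the counting interval of the value reported and 72 were counted as unmoved. The number of genes with a promoter peak in both libraries has no such interval, and its alternatives of 7 and 8 were counted as unmoved. The counting intervals are wide, and some statements changed all the same. The interval of the KO-only share over the 8 genes held the 24.6% of the whole list without Fgfr1, with 100 kb on either side and with the whole Fgfr2 record, and Fgfr2 was not lower by over 1.5-fold with that record. The interval also held 24.6% with at least 1 bp shared or neighbouring peaks merged. With at least 50% of both peaks shared, 55.1% of WT and 40.3% of KO peaks at the 8 genes had no partner, as had 57.4% and 43.8% within 10 kb of their TSSs. A stricter overlap rule can only remove partners. When the WT list was shortened to the length of the KO list by name number, the WT-only share over the 8 genes was 25%, which by construction drops late WT peaks. All 8 genes had a promoter peak in both libraries within 1 kb of a TSS and at the 5′ end of the gene record, and 7 did in the lower 50% of name numbers. Without Fgfr1 the ratio over the genes was 0.806 and the shares were 31.9% and 17.2%. Settings within 10 kb of TSSs and the whole Fgfr2 record were added after the data were seen. With that record there were 204 WT and 141 KO peaks in all, a ratio of 0.691 (0.554 to 0.861), with 40.7% (33.9% to 47.8%) WT-only and 18.4% KO-only. The WT-only interval then lay above the 32.1% of the whole list, so that share was no longer close to it. The numbers of peaks limit every value, and a missing peak is not shown to be closed.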
